A study of Mus musculus with 14 samples.

Results

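Open chromatin of 4T1 cells, a mouse mammary tumour line, was compared between 36 h and 48 h of culture at 1% oxygen by bulk ATAC-seq, in which a transposase cuts accessible DNA. Cells were fixed in the hypoxia workstation before transposition. The comparison rested on 2 peak lists, each called by the authors on the pooled reads of 2 samples, so that 4 of the 14 samples of the time course were involved. The 36 h list held 62695 unique peaks and the 48 h list 74284, which made 136979 of the 463526 peaks in the 7 lists of the series. The other lists were from normoxia and from 6, 12, 24 and 72 h at the same oxygen level, and served only to place these peaks in time. A 48 h peak with no base in common with any 36 h peak was called new, and a 36 h peak with no base in common with any 48 h peak was called left behind. Because replicates had been merged before calling, no value had a replicate error and no test between the times was possible. Intervals for shares are exact (Clopper-Pearson) at 95% and cover counting error only.

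Open chromatin falls into promoters, which surround gene starts and are often rich in G and C, and distal elements, many of which act as enhancers. In epithelial tumour cells distal elements commonly carry the AP-1 motif, bound by Fos and Jun proteins, while promoters often carry the GC box bound by SP and KLF factors. When oxygen is low, the HIF factors escape hydroxylation by the oxygen-sensing EGLN enzymes and bind short motifs in target genes for glucose use, acid handling and vessel growth. CTCF, a factor that shapes chromosome loops, binds a longer motif.

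Examples of the sequences at which the lists differed are printed here as examples of distal and promoter peaks on both sides of the step, most peaks of either set being distal. Each runs 100 bases to either side of the summit, the position of most reads in a peak, on the plus strand of mm9. Capitals mark matches on either strand to AP-1 (TGANTCA), HIF (ACGTG or GCGTG), the SP/KLF GC box (GGGCGG) and CTCF, and overlapping matches share letters. The first 3 sequences were new at 48 h: in an intron of D7Ertd443e (chr7:141573207-141573407), in an intron of Trpm3 (chr19:22412046-22412246) and in an intron of Gfra1 (chr19:58349887-58350087). The fourth was listed at 48 and 72 h only and lay between genes near Gcgr (chr11:120400734-120400934). The next 3 were left behind from 36 h, at the promoters of Whsc1 (chr5:34162968-34163168) and Tmed10 (chr12:86715154-86715354) and between genes nearest to Cntnap5a (chr1:116113035-116113235). The last was the shared peak with the highest ratio of 48 h to 36 h reads, between genes near Pam (chr1:100075303-100075503).
D7Ertd443e: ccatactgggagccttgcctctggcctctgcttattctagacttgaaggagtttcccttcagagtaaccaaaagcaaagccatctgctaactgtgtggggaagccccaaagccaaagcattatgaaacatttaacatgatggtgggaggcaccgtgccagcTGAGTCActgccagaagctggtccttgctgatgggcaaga
Trpm3: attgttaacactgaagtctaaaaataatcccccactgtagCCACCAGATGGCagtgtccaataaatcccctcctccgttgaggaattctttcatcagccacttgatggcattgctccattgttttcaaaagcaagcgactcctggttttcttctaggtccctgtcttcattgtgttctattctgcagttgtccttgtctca
Gfra1: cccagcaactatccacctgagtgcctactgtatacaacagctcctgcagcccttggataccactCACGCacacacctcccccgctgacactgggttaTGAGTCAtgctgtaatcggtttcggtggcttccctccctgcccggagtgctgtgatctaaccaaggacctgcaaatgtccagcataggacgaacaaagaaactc
Gcgr: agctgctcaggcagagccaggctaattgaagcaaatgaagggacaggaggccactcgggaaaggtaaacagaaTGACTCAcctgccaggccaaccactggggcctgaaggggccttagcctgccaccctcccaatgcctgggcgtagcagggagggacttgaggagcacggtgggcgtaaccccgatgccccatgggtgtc
Whsc1: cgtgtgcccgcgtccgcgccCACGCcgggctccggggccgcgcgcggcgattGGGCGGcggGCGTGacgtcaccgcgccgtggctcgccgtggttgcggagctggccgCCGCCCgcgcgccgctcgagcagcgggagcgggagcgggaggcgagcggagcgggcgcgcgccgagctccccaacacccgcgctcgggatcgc
Tmed10: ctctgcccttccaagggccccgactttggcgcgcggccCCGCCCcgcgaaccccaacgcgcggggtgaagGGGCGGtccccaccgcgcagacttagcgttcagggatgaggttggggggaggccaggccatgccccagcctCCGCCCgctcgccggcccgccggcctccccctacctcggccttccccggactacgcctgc
Cntnap5a: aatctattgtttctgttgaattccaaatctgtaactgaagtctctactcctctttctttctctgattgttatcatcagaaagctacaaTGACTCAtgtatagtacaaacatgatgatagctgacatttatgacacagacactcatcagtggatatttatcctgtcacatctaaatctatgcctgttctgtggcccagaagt
Pam: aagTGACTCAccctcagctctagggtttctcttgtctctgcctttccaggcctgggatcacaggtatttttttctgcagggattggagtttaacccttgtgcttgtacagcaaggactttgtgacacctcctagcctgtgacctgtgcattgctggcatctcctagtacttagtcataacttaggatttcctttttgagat
The 2 left-behind promoter peaks had GC contents of 82.6% and 75.6%, the distal left-behind peak 36.3% and the 3 new peaks 50.7%, 43.8% and 54.2%. Over all members the median GC content was much the same, at 47.3% in new and 47.8% in left-behind peaks. The AP-1 matches in D7Ertd443e, Gfra1, Gcgr, Cntnap5a and Pam were 1 each. Such a match is a description of the sequence and not evidence of a bound site.

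Far more peaks appeared than disappeared between 36 h and 48 h. Of the 74284 peaks at 48 h, 19770 were new, a share of 26.6% (26.3 to 26.9%), and of the 62695 peaks at 36 h, 7543 were left behind, a share of 12% (11.8 to 12.3%). The remaining 54514 peaks at 48 h and 55152 at 36 h overlapped. New peaks outnumbered those left behind by 2.62 to 1. At the steps on either side the balance ran the other way. From 24 h to 36 h, 13.8% of peaks were new and 25.3% were left behind, and from 48 h to 72 h the shares were 13.1% and 26.0%. The step from 6 h to 12 h was the other step with more new peaks, at 44.8% against 5.25%. These neighbouring steps share the 36 h or the 48 h list, so they are not independent of the step described. The lists differed in depth as well: the lowest expected number of reads at a summit, which scales with the reads sequenced, was 2.22 at 36 h and 2.52 at 48 h, and its part in the counts was not tested. The excess was spread over the genome, with new shares of 24.2 to 28.5% and left-behind shares of 10.2 to 13.7% on the autosomes, and 24.6% and 9.4% on chromosome X. Chromosome Y held 8 peaks at 36 h and none at 48 h.

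**Figure D1:**
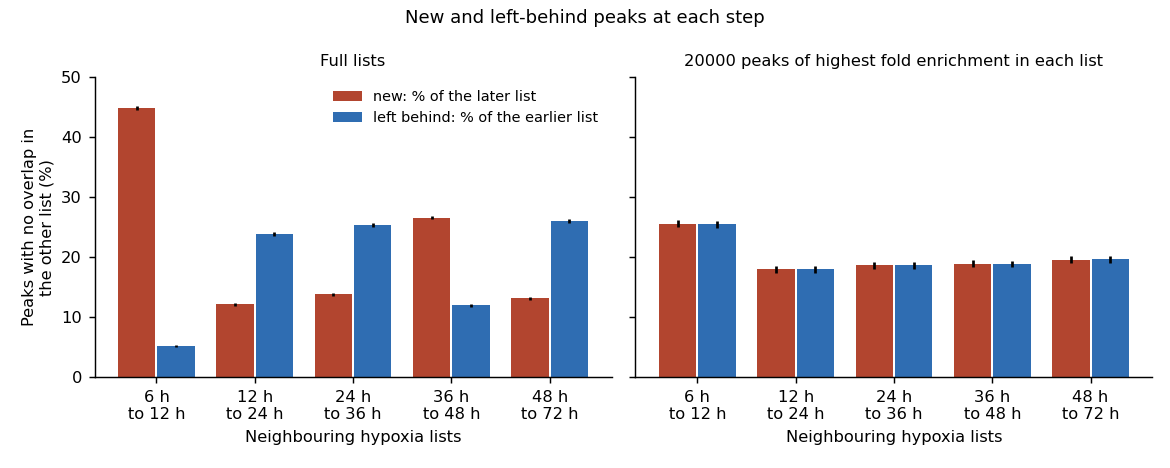
Shares of peaks without overlap in the neighbouring list, in percent, for 5 steps of the hypoxia time course, in the full lists (left) and among the 20000 peaks of highest fold enrichment of each list (right); bars start at 0 and error bars are exact 95% intervals for counting error. From 36 h to 48 h the new share (26.6%) exceeded the left-behind share (12%) in the full lists, while both were 18.9% in lists of equal length.

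Peaks that differed were weak ones. New peaks had a median of 14 summit reads and a fold enrichment of 3.77 over local background, against 33 reads and 6.78 for the shared peaks of the same list. Left-behind peaks had a median of 11 reads and a fold enrichment of 3.72, against 24 reads and 5.90. Strength is given as -log10 q, the peak caller's score after adjustment for multiple testing. The median was 4.31 in new and 3.31 in left-behind peaks, and no new peak exceeded 26.7 and no left-behind peak 17.0. New peaks were also narrow, with a median width of 274 bp against 543 bp for shared peaks, and left-behind peaks were 245 bp wide against 466 bp.

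The unmatched share fell steeply with strength in both lists. Among 48 h peaks it went from 78.2% at a -log10 q under 2 to 40.6% at 5 to 10, 7.91% at 10 to 20 and 0.0989% at 20 or more, which was 24 of 24270 peaks. Among 36 h peaks the same bands gave 50.6%, 8.39%, 0.421% and none of 17538. At every band below 20 the 48 h list had the higher unmatched share, with intervals that did not overlap. None of the 10000 peaks of highest -log10 q in either list was without a partner in the other list, and the lowest values among them were 41.8 at 48 h and 31.3 at 36 h. At the lowest background of each list, 36 h peaks had been called with as few as 8 summit reads and 48 h peaks with as few as 9. The gap from a new peak to the closest 36 h peak had a median of 8158 bp, and 15.1% lay within 1 kb of one. Left-behind peaks were placed alike, at a median of 7931 bp and with 15.8% within 1 kb.

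**Figure D2:**
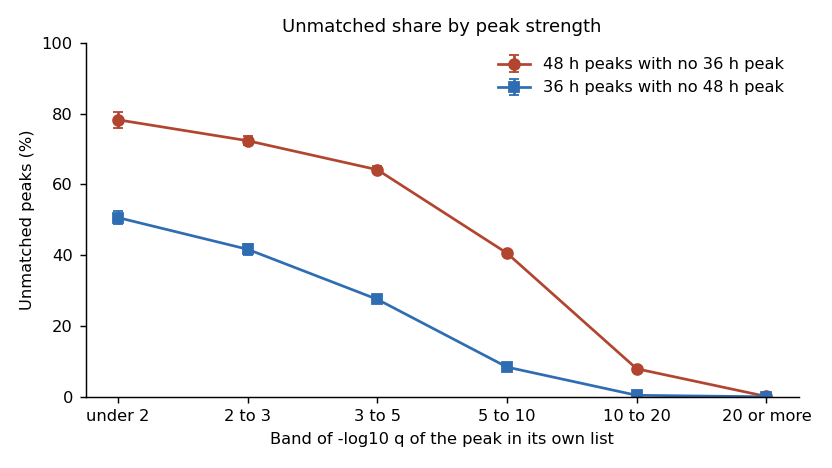
Share of 48 h peaks with no 36 h peak (circles) and of 36 h peaks with no 48 h peak (squares), in percent, by band of -log10 q in the peak's own list, with exact 95% intervals for counting error. The shares fall from 78.2% and 50.6% in the weakest band to 0.0989% and 0% in the strongest.

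Most peaks that appeared at 48 h had been listed before. Of the 19770 new peaks, 14053 (71.1%) overlapped a peak of normoxia, 6, 12 or 24 h, and 5717 (28.9%) overlapped none of those lists. The 12 h list, the longest of the 7 with 81732 peaks, held 58.0% of them, the 24 h list 44.2%, normoxia 29.3% and the 6 h list 15.1%. After the step, 37.2% (36.5 to 37.8%) were still listed at 72 h, and 60.9% were when both lists were limited to -log10 q values of at least 5, which also counts peaks with a weaker 36 h partner as new. A group of 4188 new peaks was listed at both 24 h and 72 h and so was missing at 36 h between them, and 810 were listed in all 5 other lists. At the other end, 4472 were listed at 48 h alone.

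Left-behind peaks had been listed less often. Of the 7543, 33.5% (32.4 to 34.6%) overlapped a 24 h peak, 42.6% a 12 h peak and 18.6% a normoxia peak, and 21.4% were back at 72 h. With both lists limited in the same way, 68.0% overlapped a 24 h peak. The share found in none of the other 5 lists was 39.7% (38.6 to 40.8%), against 22.6% (22.0 to 23.2%) of the new peaks. Strength moved with these shares. At a -log10 q of 3 to 5, 37.3% of new and 34.1% of left-behind peaks had a 24 h peak, and at 5 or more 58.0% and 53.5% did. Shared peaks of the 48 h and 36 h lists were at 71.7% and 80.9% in the band of 3 to 5. They were at 96.1% and 97.6% at 5 or more, and at 93.5% and 93.4% over all strengths. A 72 h peak was found for 87.4% of shared peaks of either list, over all strengths.

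The strongest new peaks had been listed before and were missing at 36 h: all 10 of highest -log10 q were in the 12, 24 and 72 h lists, 6 also in normoxia and 6 at 6 h. The first (chr1:166206706-166207140) lay in 4930455F23Rik with its summit 1213 bp from the closest start. It had 19 summit reads in normoxia, 20, 31 and 20 at 6, 12 and 24 h, and 45 and 14 at 48 and 72 h. Here and below, reads are not scaled for depth, so those of different lists are not on one scale. The lowest expected reads at a summit were 0.926 in normoxia and 3.25, 2.34 and 1.85 at 6, 12 and 24 h. At 72 h the value was 2.52. The peak in an intron of D7Ertd443e (chr7:141573119-141573579) had 13, 14 and 14 reads at 6, 12 and 24 h, then 35 and 36 at 48 and 72 h. Of the 10, it and the peak of Man2a1 had more reads at 72 h than at 48 h. An intronic peak of Ltbp2, which encodes a protein of extracellular microfibrils, had 22, 13, 34 and 17 reads at 12, 24, 48 and 72 h. In Trpm3, a cation channel gene, an intronic peak 110627 bp from the closest start had 9 reads in normoxia, 13, 17 and 20 at 6, 12 and 24 h, and 34 and 14 at 48 and 72 h. In Gfra1, which encodes a receptor for glial cell line-derived neurotrophic factor, an intronic peak (chr19:58349744-58350214) had 7 reads in normoxia, 13, 27 and 22 at 6, 12 and 24 h, and 34 and 23 at 48 and 72 h. These 3 intronic peaks were lower at 24 h and at 72 h than at 48 h, which the choice of the 10 by 48 h -log10 q favours.

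Among the other strong new peaks, those near Klhl25 and Cxxc4 had more reads at 12 h than at 48 h. The intergenic peak 25733 bp from Klhl25, a cullin adaptor gene, had 11 reads in normoxia, 27, 39 and 28 at 6, 12 and 24 h, and 36 and 29 at 48 and 72 h. Near Cxxc4, which encodes an inhibitor of Wnt signalling, a peak had 15 reads in normoxia and 42, 32, 35 and 19 at 12, 24, 48 and 72 h. An intronic peak of Duox1, a gene for a hydrogen peroxide-producing oxidase, had 36, 27, 43 and 24 reads at these 4 times. It was thus highest at 48 h, the time by which it was chosen. The start of Cyp4f16, a cytochrome P450 gene, had 17 reads in normoxia, 15, 21 and 19 at 6, 12 and 24 h, and 32 and 22 at 48 and 72 h. Its summit lay 8 bp from the start, the closest of the 10. The tenth, in an intron of the Golgi mannosidase gene Man2a1, had 23, 20, 32 and 33 reads at 12, 24, 48 and 72 h.

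**Figure D3:**
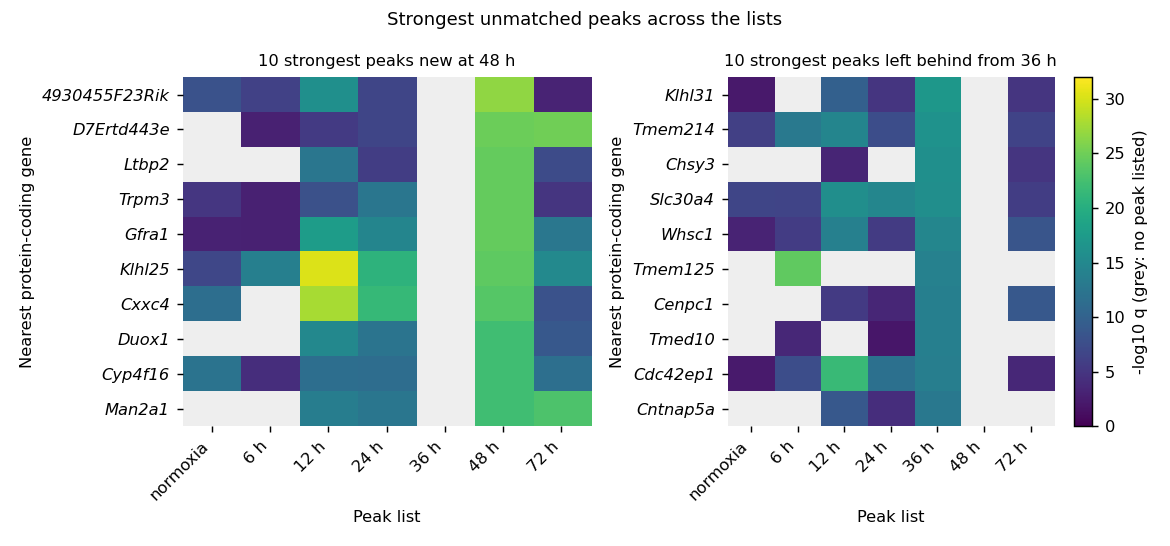
-log10 q of the 10 strongest peaks new at 48 h (left) and the 10 strongest left behind from 36 h (right) in each of the 7 peak lists, with the nearest protein-coding gene on the y axis; grey marks lists with no overlapping peak. All 10 new peaks are coloured at 12, 24 and 72 h, and 5 of the 10 left-behind peaks lie at promoters.

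Left-behind peaks were less strong, and 5 of the 10 strongest lay at promoters. The strongest was intergenic, 25777 bp from Klhl31 (chr9:77458610-77458956), with 6 reads in normoxia and 19, 12, 26 and 14 at 12, 24, 36 and 72 h. At the start of Tmem214 the summit had 10 reads in normoxia, 26, 24, 15 and 27 from 6 to 36 h, and 16 at 72 h. The start of Slc30a4, a zinc transporter gene, had 25 reads in normoxia, 30, 53, 48 and 45 from 6 to 36 h, and 32 at 72 h. Its local background was high, at 8.58 reads. The promoter of Whsc1, a histone methyltransferase gene, had 11 reads in normoxia, 20, 36, 17 and 31 from 6 to 36 h, and 23 at 72 h. Cdc42ep1, which encodes an effector of the Cdc42 GTPase, had 22 reads in normoxia, 42, 75, 50 and 51 from 6 to 36 h, and 34 at 72 h, over a background of 12.46. These 4 promoter peaks were thus in every list but that of 48 h. A promoter peak of Tmed10, a cargo receptor of the early secretory pathway, was listed at 6, 24 and 36 h only, with 14, 8 and 24 reads. These records are of single peaks, and a promoter can hold others. Slc30a4 led the genes whose promoter peaks were all unmatched and at 36 h only, at a -log10 q of 15.8. The next of those genes, Fate1 and Rab11fip3, were at 12.9. Tmem214, Whsc1, Cdc42ep1 and Tmed10 had stronger left-behind peaks and were not in that set. A 48 h peak therefore lay in or beside each of their promoters. An intergenic peak 4226 bp from Tmem125 was listed at 6 h, with 52 reads, and at 36 h, with 29, and in no other list. The other 3, near Chsy3, Cenpc1 and Cntnap5a, were intergenic and had 22 to 25 reads at 36 h.

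A small set of regions was listed for the first time at 48 h and kept at 72 h. Of the 19770 new peaks, 1245 were in the 48 h and 72 h lists and in no earlier one, and 433 of them had a -log10 q of 5 or more at 48 h. The strongest lay 4840 bp from Gcgr, the glucagon receptor gene, with 24 reads at 48 h and 20 at 72 h. A second intergenic peak with 24 reads at 48 h, 247012 bp from the PI3-kinase subunit gene Pik3r1, had 11 at 72 h. In an intron of Fli1, an ETS factor gene, the reads were 26 and 10. Reads were lower at 72 h in all 10 of the strongest such regions, which the choice by 48 h -log10 q favours. Over all pairs of 48 h and 72 h peaks the median ratio of 72 h to 48 h reads was 0.779. The nearest approach was in an intron of Fam73a, 12305 bp from the actin-binding gene Nexn, with 23 and 22 reads, and an intronic peak of the Arf GAP gene Git2 had 24 and 23. A promoter peak of Celsr1, a cadherin of planar cell polarity, had 31 and 16 reads, and one at Bst1, an ectoenzyme gene, had 22 and 14. In Zmynd11, which encodes a histone reader, an intronic peak had 32 and 27. Wdr25 and Ttc7 held the other 2 intronic peaks, with 27 and 17 reads and 26 and 16 reads.

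Other regions were listed at 24 h and 36 h and not afterwards. Of the 7543 left-behind peaks, 1752 (23.2%) had a 24 h peak and neither a 48 h nor a 72 h peak, and 400 of the 1752 had a -log10 q of 5 or more. By the mirrored rule, a 72 h peak and no 24 h peak, 3160 of the 19770 new peaks (16.0%) were listed on the later side only. The Tmed10 peak led the set at 24 h and 36 h too, followed by the intergenic peak 1468198 bp from Cntnap5a, with 18, 11 and 22 reads at 12, 24 and 36 h. A promoter peak of Plekhg5 had 13, 17, 15 and 24 reads from 6 to 36 h, and one of Fate1 had 16, 21 and 22 from 12 to 36 h. Neither was listed in normoxia. A peak in a coding exon of Hdx had 9 reads in normoxia and 17, 29, 24 and 21 from 6 to 36 h. The start of Sh2d1b2 had 14 reads in normoxia and 24, 17 and 20 from 12 to 36 h. An intronic peak of Armc3 had 17, 18 and 22 reads from 12 to 36 h. The other 3 had 20 to 40 reads at 36 h and lay closest to the starts of C1ql3, Chek2 and A230083G16Rik.

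With lists of equal length, as many peaks entered as left. Among the 20000 peaks of highest fold enrichment in each list, 3782 were new (18.9%) and 3771 left behind (18.9%), numbers that equal lengths hold close together. The steps from 24 h to 36 h and from 48 h to 72 h had new shares of 18.7 and 19.6%. The last peak inside had a fold enrichment of 7.14 at 36 h and 8.02 at 48 h, and the first outside had the same value to those digits. Nearly all of these were changes of rank: 3742 of the 3782 new peaks (98.9%) and 3765 of the 3771 left-behind peaks (99.8%) had a partner in the full other list. That partner had a median rank of 25918 for new and 24980 for left-behind peaks. New peaks of the equal-length lists had a median of 36 reads and their 36 h partners 20. Left-behind peaks had a median of 36 reads, and so did their 48 h partners, whose median fold enrichment of 7.11 lay under that list's limit of 8.02.

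What entered and what left the equal-length lists differed in position. Of the peaks that entered, 14.7% (13.6 to 15.9%) had a base within 1 kb of a protein-coding start, here called a promoter peak, and of those that left, 35.6% (34.1 to 37.2%) did. Shared peaks of the same lists were at 33.2% and 33.1%. At the step before, from 24 h to 36 h, the order was the reverse, with 31.3% of entering and 13.7% of leaving peaks at promoters, and from 48 h to 72 h it was 23.3% and 15.9%. The step from 6 h to 12 h had 12.6% and 35.1%. GC content moved with position: 10.5% of the entering and 33.2% of the leaving peaks had a GC content of 60% or more around the summit. In the full lists the promoter share was 8.28% (7.90 to 8.67%) in new and 12.1% (11.4 to 12.8%) in left-behind peaks, against 22.8% and 22.4% in shared ones. Among peaks with -log10 q values of at least 5, 7.62% of new and 17.3% of left-behind peaks lay there. Shared peaks of that strength were at 23.6% in the 48 h list and 25.7% in the 36 h list. At a -log10 q of 3 to 5, new peaks were at 8.85% and shared 48 h peaks at 15.6%. Left-behind peaks of that band were at 11.2% and shared 36 h peaks at 10.8%, with overlapping intervals. Of all new and left-behind peaks, those away from promoters lay in introns (38.7% and 36.2%), between genes (50.7% and 48.7%) or in exons (2.38% and 3.05%).

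**Figure D4:**
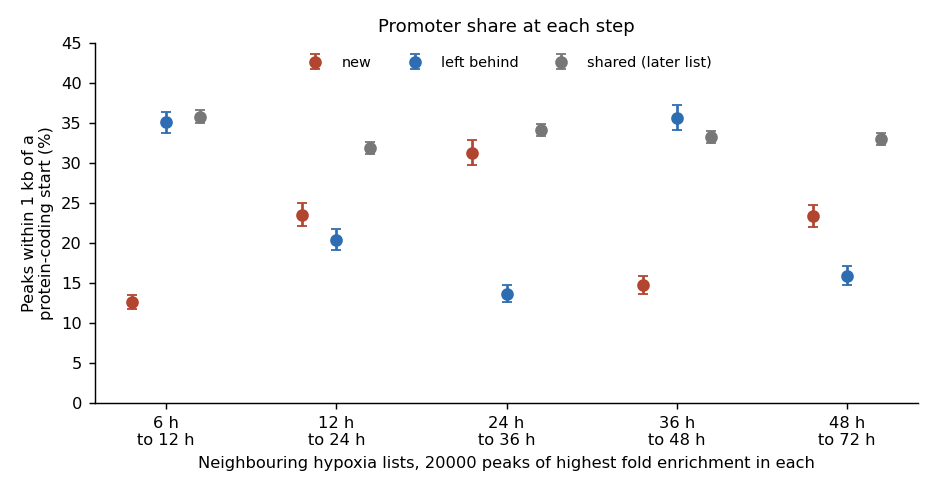
Share of peaks within 1 kb of a protein-coding start, in percent, among new, left-behind and shared peaks of the 20000 of highest fold enrichment of each list, at 5 steps; error bars are exact 95% intervals for counting error. From 36 h to 48 h new peaks are at 14.7% and left-behind peaks at 35.6%, and from 24 h to 36 h the order is reversed (31.3% and 13.7%).

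Shared peaks carried the same contrast, which is not separate support. They include nearly all peaks that entered or left the equal-length lists, and their reads were solved partly from the fold enrichment used for ranking. Peaks that overlapped 1 to 1 and had a mean of 20 or more summit reads numbered 36848. Their reads were higher at 48 h by a median ratio of 1.34, or 0.42 on the log2 scale, whereas the genome background, which scales with the number of reads, was higher by a ratio of 1.135. The log2 ratios below are relative to that median. After this centring, 305 pairs (0.828%) were 2-fold or more higher at 48 h and 284 (0.771%) 2-fold or more lower, and without it the numbers were 2449 and 25. The balance depended on the setting: pairs with a mean of 40 or more reads gave 16 higher and 34 lower, and the deposited fold enrichment gave 251 and 57. The spread of the ratios was an SD of 0.375, and counting error alone gives 0.343. In bulk samples, fewer cells with a region open and less cutting of that region per cell cannot be told apart.

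GC-rich promoters had lower ratios than the other shared peaks, in a split by GC content made after the data were seen. The 6398 promoter pairs with a GC content of 60% or more had a median of -0.22, and 77.0% of them lay below 0. The 3347 promoters of lower GC content stood at 0.00 and the 27103 pairs away from promoters at 0.05. GC-rich pairs away from promoters, 1383 in number, had a median of -0.02. Of the GC-rich promoters, 2.78% were 2-fold or more lower and 0.141% higher, and away from promoters 0.325% were lower and 1.01% higher. On the uncentred scale the GC-rich promoters had a ratio of 1.15, which is above 1 and near the background ratio of 1.135, and pairs away from promoters had 1.39. With the deposited fold enrichment in place of reads, the medians were -0.11 for GC-rich promoters, -0.01 for other promoters and 0.03 away from promoters. Protocol and sequencing bias with GC content were not measured in these files, and their part in the shift was not tested.

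GC-rich promoters stood above the median in the 36 h list and below it in the 48 h list against each of the other lists, comparisons that share the 36 h or the 48 h list. Set against normoxia, 6, 12, 24 and 72 h, the 36 h list had GC-rich promoter medians of 0.01, 0.06, 0.12, 0.11 and 0.19. The 48 h list had -0.22, -0.15, -0.11, -0.10 and -0.02 against the same lists. The low-GC promoters did not follow one direction, with medians from -0.09 to 0.07 for the 36 h list and from -0.05 to 0.08 for the 48 h list.

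**Figure D5:**
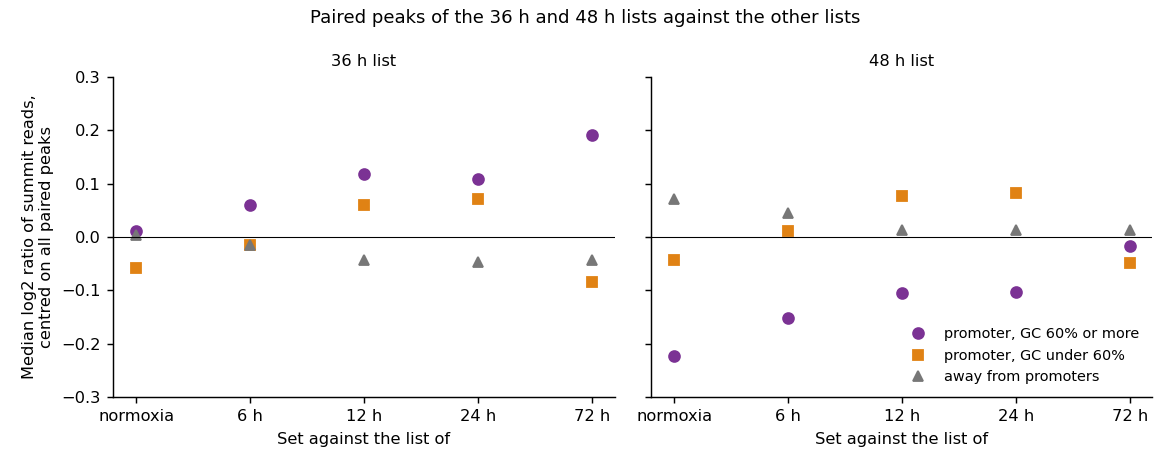
Median log2 ratio of summit reads, centred on all paired peaks, of the 36 h list (left) and the 48 h list (right) against each of the other 5 lists, for GC-rich promoters (circles), other promoters (squares) and pairs away from promoters (triangles). GC-rich promoters run from 0.01 to 0.19 in the 36 h list and from -0.22 to -0.02 in the 48 h list.

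Individual shared peaks with the highest ratios were distal. The intergenic peak 83180 bp from Pam (chr1:100075175-100075931), a gene for the enzyme that amidates peptides, had 12 reads in normoxia, 17, 43 and 26 at 6, 12 and 24 h, and 8, 38 and 23 at 36, 48 and 72 h. Its 48 h to 36 h ratio was 4.75, against the median of 1.34. A peak 27029 bp from the splicing factor gene Srsf10 went from 8 to 34 reads, and one in an intron of Crim1 from 9 to 38. The Crim1 peak still had 31 reads at 72 h. In an exon of Bcat2, the mitochondrial branched-chain aminotransferase gene, a peak had 10 reads in normoxia, 25, 31 and 25 at 6, 12 and 24 h, and 11, 43 and 26 at 36, 48 and 72 h. A peak 110878 bp from Cenpw, a centromere protein gene, had 31, 29, 12, 46 and 38 reads from 12 to 72 h. The start of Vtcn1, an inhibitory ligand of T cells, was the 1 promoter among the 10, with 9, 34 and 28 reads at 36, 48 and 72 h. Ratios of the 10 ran from 3.78 to 4.75, and in each of them the 36 h reads, which the choice by ratio keeps low, were also fewer than at 12 h.

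The lowest ratios were mostly at promoters, 6 of 10. The start of Cdkn2aipnl had 18 reads in normoxia, 20, 30 and 20 at 6, 12 and 24 h, and 31, 11 and 22 at 36, 48 and 72 h, a ratio of 0.355. At the start of Hipk1, a nuclear kinase gene, the reads were 38, 15 and 31 at 36, 48 and 72 h. Ctnnb1, which encodes beta-catenin, had 36 reads at its start in normoxia, 43, 60, 42 and 48 from 6 to 36 h, and 21 at both 48 h and 72 h. The start of the forkhead gene Foxk2 had 52, 23 and 20 reads at 36, 48 and 72 h. Reads at 72 h were thus above those at 48 h for Hipk1 and Cdkn2aipnl and within 3 reads of them for Ctnnb1 and Foxk2. The choice by ratio keeps the 48 h reads of these peaks low. Smarcd3, a chromatin remodeller subunit gene, had 54, 25 and 20 reads at the same times, 2884 bp from its start. Ccdc55 had 28, 13 and 20 reads at its start. The intronic peaks of Slc35f1 and Ppp1r12a and the intergenic peak near N6amt1 had ratios of 0.379 to 0.452, and 1 promoter of the 10 is not described.

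AP-1 sequences were less common in unmatched than in shared peaks, and least common in those left behind. Outside promoters the AP-1 motif lay within 100 bp of 36.1% (35.4 to 36.8%) of new and 28.4% (27.3 to 29.5%) of left-behind summits, and of 51.6% and 50.4% of shared ones. Over all peaks of the 48 h and 36 h lists, promoters included, 40.2% and 39.6% held it. At a -log10 q of 3 to 5 the shares outside promoters were 34.7% of new, 29.8% of left-behind and 38.3% and 39.1% of shared peaks. At 5 or more, new peaks were at 39.8% (38.7 to 40.9%) and left-behind peaks at 36.3% (33.4 to 39.3%), and the intervals overlapped. The TEAD motif (GGAATG) lay near 16.7% of new and 14.4% of left-behind summits outside promoters, against 19.7% and 19.4% of shared ones.

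CTCF sequences were more common in new than in shared peaks over all strengths and among the stronger peaks. Outside promoters the motif lay near 4.40% (4.10 to 4.70%) of new and 2.84% (2.45 to 3.26%) of left-behind summits, and near 2.60% and 2.51% of shared ones. Among peaks with -log10 q values of at least 5 the shares were 5.31% (4.82 to 5.83%) and 3.68% (2.62 to 5.01%), with overlapping intervals, against 2.44% and 1.89% of shared peaks. In the band of 3 to 5 this order did not hold, with 4.00% of new and 3.42% of left-behind peaks against 3.94% and 4.60% of shared peaks of the 48 h and 36 h lists. Over all peaks, promoters included, 2.76% at 48 h and 2.21% at 36 h held the motif. HIF motifs were not more common in new peaks: outside promoters they lay near 18.1% (17.6 to 18.7%) of new, 19.3% (18.4 to 20.3%) of left-behind and 21.8% and 21.7% of shared summits. Counting promoters too, 19.3% of new and 21.9% of left-behind summits had one, against 26.2% and 27.7% of all 48 h and 36 h peaks. With promoters included the SP/KLF GC box lay near 5.43% of new and 9.39% of left-behind summits, and outside promoters near 4.15% and 4.48%, with overlapping intervals. Over all peaks it was found in 14.1% and 16.5%.

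Promoters of individual genes were mostly listed at both times. Among 22225 annotated genes that code for protein, both lists held a promoter peak for 11313 and neither list for 10011, while 511 (2.3%) had one at 48 h only and 390 (1.75%) at 36 h only. In 478 of the 511 and 381 of the 390 every such peak was itself unmatched, and in the rest its partner lay outside the 1 kb window. Their strength was low, with a median -log10 q of 4.31 in the 478 and 3.32 in the 381. Of the genes with a promoter peak at 48 h only, 48.1% had one at 24 h and 43.2% at 72 h, against 40.8% and 22.8% of those with one at 36 h only.

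Few genes of the hypoxia response had a promoter peak in 1 list only, as few genes at large did (2.3% and 1.75%). Of 32 HIF target genes 28 had a promoter peak in both lists, 3 in neither, 1 at 48 h only and none at 36 h only. The exception was Slc2a3, which encodes the glucose transporter GLUT3, with 14, 16 and 19 reads at 24, 48 and 72 h and no peak at 36 h or before 24 h. Its -log10 q at 48 h was 3.62. It was not a gene of 48 h only within 5 kb, or with both lists at -log10 q values of at least 5. Vegfa, the main vessel growth factor gene, was in both lists and is named after its values were seen: it had 14 reads in normoxia, 26, 37 and 24 at 6, 12 and 24 h, and 12, 25 and 17 at 36, 48 and 72 h. Car9, a carbonic anhydrase gene that is a classical HIF target, likewise named, was in no list before 12 h and had 15, 11, 10, 17 and 23 reads from 12 h to 72 h. With both lists limited to -log10 q values of at least 5, Vegfa and Car9 were listed at 48 h only. Of the 24 target promoters that could be paired, 7 lay above the median of all pairs and 17 below it, with a median of -0.18, none moved 2-fold, and 22 had a GC content of 60% or more. Over all 9745 promoter pairs the median was -0.14, and 32.3% lay above 0. Stc2, a secreted glycoprotein gene, had the highest value of the 24, with 32 reads at 36 h and 69 at 48 h, a ratio of 2.16 (1.40 to 3.39, for counting error). Egln1, the main oxygen-sensing prolyl hydroxylase gene, had the lowest, with 42 and 31 reads and a ratio of 0.738 (0.449 to 1.20).

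The HIF subunits and oxygen sensors numbered 10, of which 8 were in both lists. Epas1, the gene of HIF-2 alpha, had a promoter peak at 36 h only, with 14, 13 and 10 reads at 6, 24 and 36 h and no peak in the other lists. Its -log10 q at 36 h was 2.41. Hif1an, which encodes the asparagine hydroxylase that restrains HIF, went from 17 to 37 reads, a ratio of 2.18 (1.20 to 4.12), and Hif1a from 81 to 76, a ratio of 0.938. The interval of Hif1an held the overall ratio of 1.34 and that of Hif1a lay below it. The 8 paired promoters, which include Egln1 and Egln3 of the target list, had a median of -0.18, with 4 above 0. Among 16 angiogenic genes, Vegfb was listed at 36 h only, with 12 reads there and 16 at 24 h, and Pdgfb at 48 h only, with 10. Their -log10 q values were 4.04 and 2.28.

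Most other lists had medians at or below 0, as all promoters did. All 14 cell cycle genes had promoter peaks in both lists, and the 13 that could be paired had a median of -0.38, with 4 above 0 and 12 of high GC content. Of 10 AP-1 subunit genes 9 were in both lists, and the 8 pairs had a median of -0.02. The 11 unfolded protein and amino acid stress genes and the 10 NRF2 antioxidant genes were all in both lists, with medians of -0.15 each. The 12 circadian clock genes were too, with a median of -0.20. Mesenchymal genes had a median of -0.33 over 8 pairs and the 3 paired C/EBP genes -0.49. Among 16 factors the study discusses, the TEAD family gene Tead1 had the largest fall, from 33 to 17 reads and back to 30 at 72 h, a ratio of 0.515 (0.269 to 0.952). Without centring every value is higher by 0.42, which turns the list medians named here positive, except that of the C/EBP genes.

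Epithelial genes were the only list of more than 2 pairs with every pair above the median of all pairs. Of 12, 11 had a promoter peak in both lists and Cldn7 in neither, and the 8 paired promoters ran from 0.02 to 0.58, with a median of 0.21, although 6 of them had a GC content of 60% or more. The 3 that could not be paired did not follow: their strongest promoter peaks had 43 and 39 reads at 36 h and 48 h for Epcam, 18 and 19 for Krt18, and 15 and 18 for Krt7. Krt19, a keratin of simple epithelia, had 25, 18, 36 and 35 reads at 24, 36, 48 and 72 h. For Krt8, its partner in such cells, the strongest promoter peak had 29, 20, 43 and 46 reads at these times. The tight junction gene Cldn4 went from 59 to 96 reads, a ratio of 1.63 (1.16 to 2.29), and Cldn3 from 51 to 79. Cdh1, the E-cadherin gene, stood closest to the median of all pairs with 36 and 49 reads, a ratio of 1.36. The intervals of Cldn4 and of Krt19 (1.11 to 3.74) held the overall ratio of 1.34.

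Markers of other cell types were unlisted about as often as genes at large, of which 10011 of 22225 had a promoter peak in neither list. Of 9 immune markers 5 had no promoter peak in either list, among them Ptprc, the pan-leukocyte gene, and Itgam, a myeloid integrin gene, and the same held for 4 of 7 fibroblast and 4 of 6 endothelial markers. Lyz2, the lysozyme gene, had 16 reads at 36 h only and Sfpi1, a myeloid factor gene, 13 at 48 h only. Both were weak, with -log10 q values of 4.60 and 4.31, and were listed in no other list of the series. Csf1r, the macrophage colony-stimulating factor receptor gene, was listed in all 7, with 27 reads at 36 h and 64 at 48 h. It had 62 and 44 reads at 12 and 24 h. The 2 paired fibroblast promoters, Col1a2 and Pdgfra, also had values above 0.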

How the data were processed

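Per the labels, the authors aligned reads to mm9 with Bowtie2 2.1.0, removed duplicates with Picard 1.79, merged the 2 samples of each time and called narrow peaks with MACS2. Deposited values are the fold enrichment, a ratio of reads at the summit over the local background, and a -log10 p-value and -log10 q-value per peak. Lists were used as deposited, and none was scaled to another.

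Peaks were unique intervals, represented by the summit of highest -log10 q. Whole summit reads and background were solved from fold enrichment and -log10 p, which recovered 99.995% of 19870 simulated summits. In simulated pairs with counting error alone, 98.5% of 200 raised 3-fold and 0.152% of 19800 unchanged ones passed 2-fold upward. The simulated reads were not drawn from the 36 h and 48 h pairs and ran higher, so 0.152% is not their false rate. Of the 36848 real pairs, 19036 had a mean of 20 to 40 reads and held 294 of the 305 that were 2-fold higher. The lowest background of a list stood for its genome background, since read totals were not used here. Genes and sequence came from NCBIM37 with GENCODE vM1; 177 of 178 listed genes were found there. A promoter peak had a base within 1 kb of any protein-coding start. Motifs, 17 in all, were searched within 100 bp of summits. Named peaks were the 10 of highest -log10 q in each set and the 10 highest and lowest ratios, plus listed genes with a promoter peak in 1 list, and each was named by its nearest protein-coding start. The members and lists were chosen with earlier results of these data known. Scripts ran in Python 3.11.15 with scipy 1.17.1 for intervals, pysam 0.24.0 for sequence and pandas 2.3.3. Alternatives included other overlap rules, thresholds, list lengths and promoter distances. A few items, 1 of the named peaks among them, are not reported here.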

Additional observations from a re-analysis of the deposited data

How the results depend on the processing

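Across 42 alternatives to the main counts and shares, 23 stayed within 1.5 times the count or within the interval of the share and 19 moved. With both lists cut to -log10 q values of at least 5, so that a peak with a weaker partner counted as unmatched, 2971 peaks were left behind and 16750 were new, 60.9% of new peaks had a 72 h peak, 68.0% of left-behind peaks had a 24 h peak and 17.2% of left-behind peaks lay at promoters. With 40000 peaks of each list, 6619 were new and 6368 left behind. Among the 20000 peaks of highest -log10 q, 2 new peaks had no 36 h partner. With 50% overlap the shares with a 72 h and a 24 h peak were 36.0% and 32.3%, and within 5 kb the promoter shares were 19.9% and 21.6%. Pairs 2-fold higher and lower at 48 h numbered 2449 and 25 without centring and 16 and 34 at a mean of 40 or more reads, and 57 were lower by fold enrichment. Within 5 kb, the listed genes with a promoter peak in 1 list only were Epas1 at 36 h and Cldn7 and Runx3 at 48 h. With both lists at -log10 q values of at least 5, Nfix had one at 36 h only. There, 7 had one at 48 h only: Car9, Ccnd1, Col1a1, Krt8, Snai2, Sparc and Vegfa. Slc2a3, Pdgfb, Sfpi1, Vegfb and Lyz2 were in 1 list only under neither setting. Of 108 alternatives to motif shares and group medians, 43 stayed within the interval of the share and 65 moved. Every alternative to a group median was counted as moved, and reversals were not scored. The median of the other promoters went from 0.00069 to -0.0072 by fold enrichment. The cause of these moves was not tested. The GC split was added after the data were seen, and GC-rich promoters then had medians of -0.11 by fold enrichment and -0.18 at 40 or more reads. Leaving out each replicate could not be run, because each list was called on pooled reads. No paired analysis was possible because each list merged both samples of a time. At the lowest background the fewest reads of a called peak were 8 at 36 h and 9 at 48 h, and the part of depth in the counts was not tested.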
